A study of Homo sapiens with 6 samples.

Results

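The ubiquitin-conjugating (E2) enzymes were examined in RNA from MDA-MB-436 cells, an established triple-negative breast cancer line, with and without silencing of the transmembrane mucin MUC1. Members were chosen by symbol: every row of the count table named UBE2 plus a letter and at most 1 digit, and UBE2QL1, which gave 36 of the 37887 rows. A further symbol of that pattern, a mitotic cyclosome E2, was not a member. The family was taken up because UBE2Q2 was already known to be much lower in this comparison, so the values of UBE2Q2 are given as a description with no test.

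The 6 libraries fell into 2 groups of 3. The control cells received 0.1% DMSO and the shMUC1 cells 500 ng/ml doxycycline, which switches on an integrated MUC1 shRNA. Titles of the control samples speak of a control shRNA, but their treatment label and the design text give vehicle on cells with the inducible MUC1 shRNA, and that account was followed. Cells with a control shRNA under doxycycline were not analysed here, so effects of doxycycline and of silencing cannot be told apart. The time on doxycycline and the number of clones behind the line were not given in the sources used here. Cells were cultured in triplicate, and nothing states that the cultures were independent experiments, so the p-values measure the spread between these samples, which may be technical.

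Ubiquitin is passed along a chain of 3 enzyme classes. An E1 activates it, an E2 carries it as a thioester on an active-site cysteine, and an E3 ligase brings the loaded E2 to a substrate. The E2 largely sets which kind of ubiquitin chain is built, and some E2s carry the related modifiers SUMO, NEDD8 or ISG15 in place of ubiquitin. UBE2V1 and UBE2V2 lack the cysteine and act as partners of UBE2N.

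MUC1 itself was low in both groups. Its raw counts were 93, 84 and 102 in the control libraries and 72, 51 and 34 in the shMUC1 libraries, so the groups did not overlap. The level was 3.88 ± 0.401 CPM (counts scaled to a common library size) in control and 2.14 ± 0.412 in shMUC1 (SD, n = 3 each). The log2 fold change was -0.84 with a standard error (SE) of 0.214 (adjusted p = 0.00119, edgeR quasi-likelihood test with Benjamini-Hochberg adjustment). Library totals ran from 18678307 to 27825546 counts. Of 8 line markers, ESR1 and PGR were too low to test, which the label of a triple-negative line fits, while ERBB2 had enough counts to be tested. The 4 epithelial markers rose (CDH1, EPCAM, KRT8 and KRT18). VIM (log2 fold change -0.78) and ERBB2 (-0.20) fell. Over all tested genes 25.2% rose and 23.6% fell. The summed epithelial markers ran from 541 to 575 CPM in control and from 1091 to 1132 CPM in shMUC1, and the part of this shift in the E2 values was not tested. In bulk RNA, fewer cells of a type and less RNA per cell cannot be told apart.

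Short 3′ UTR stretches are shown first because UBE2Q2 and UBE2Z, the members with the lowest log2 fold changes, share an 8-base word there. The 7-base word ATCAGTA had come up in an earlier scan of these same counts as going with lower expression, so its presence is a description and not independent evidence. It was searched on the transcript strand of the 3′ UTRs of GENCODE release 29 (GRCh38). It was found in 5 of the 32 members with an annotated 3′ UTR that passed the filter, or 15.6%, against 12.8% of 13020 tested genes. The median 3′ UTR was 1942 bases in these members and 1416 bases in the tested genes, so shares of a word are not matched for length. The sites are written 5′ to 3′ on the transcript strand with 10 flanking bases, and capitals mark the word.

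UBE2Q2: aattctttaaATCAGTAaagttcctta
UBE2Z: taggctgctgATCAGTAagctttacct
UBE2D3: gcctggattaATCAGTAtgggaaacaa
UBE2J1: tagctttataATCAGTAtaaattttaa
UBE2N: tgcataaagcATCAGTAtctgaccttt

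The site of UBE2Q2 lies at chr15:75900843-75900849 on the plus strand and that of UBE2Z at chr17:48927752-48927758 on the plus strand. The site of UBE2D3 lies at chr4:102796563-102796569, that of UBE2J1 at chr6:89328817-89328823 and that of UBE2N at chr12:93409127-93409133, all on the minus strand. The word with its next base reads ATCAGTAA in UBE2Q2 and UBE2Z, and ATCAGTAT in the other members shown. UBE2Q2 and UBE2Z had log2 fold changes of -2.17 and -0.51, while UBE2D3, UBE2J1 and UBE2N had values of -0.03, 0.21 and 0.13. The word ATCAGTAA stood in 2 of 32 members (6.25%), UBE2Q2 counted among them, and in 566 of the 13020 tested genes (4.35%). Of 142 tested genes with an annotated 3′ UTR from the marker, proliferation and pathway lists, without the members and the CTLH list, 10 held ATCAGTAA, and their log2 fold changes ran from -0.83 (the activating enzyme UBA6) to 0.31 (the ligase ARIH1), with 5 of 10 below 0. No effect of the word was tested.

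Among the members other than UBE2Q2, silencing of MUC1 went with more small rises than falls. Of the 31 tested, 15 rose, 2 fell, UBE2Z by the most, and 14 did not pass the test (adjusted p under 0.05). The risers made up 48.4% of the tested members, where 25.2% of all 15355 tested genes rose, and the fallers made up 6.45%, where 23.6% of all genes fell. The median log2 fold change of the tested members was 0.13, against 0.00058 over all tested genes. Leaving out UBE2Q2, already known to be lower, makes the fallers among the members fewer here and below. The values over all genes keep such genes, UBE2Q2 included. The changes were mostly small: only UBE2H rose by more than 1.5-fold, while 5.51% of all genes did, and 0 of the 31 fell by that much, while 8.34% of all genes did (edgeR, DESeq2 and limma-voom gave the same 1 and 0, and with each tool 2 members were lower at an unadjusted p under 0.05). All 3 shMUC1 libraries lay above all 3 control libraries for 14 members and below them for 2, and the groups overlapped for 15. Over all tested genes the corresponding shares were 28.1% above and 26.8% below. The members together took 0.340% ± 0.00323 of the counts in control and 0.353% ± 0.00254 in shMUC1 (SD, n = 3 each).

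**Figure D1:**
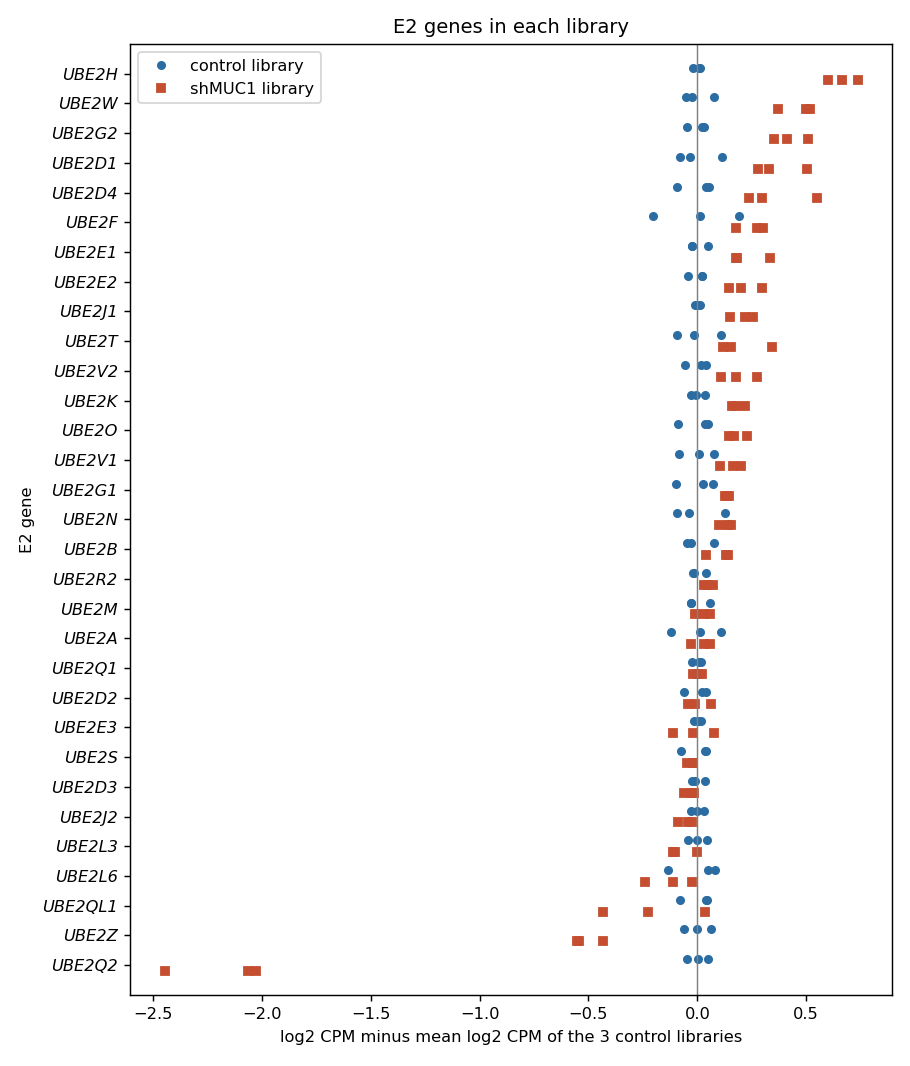
Level in each library of the 31 E2 genes that passed the filter and are reported here, as log2 CPM minus the mean log2 CPM of the 3 control libraries, for control (circles) and shMUC1 (squares). UBE2Q2 stands apart at the bottom, and for 14 members every shMUC1 library lies to the right of every control library.

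The remaining 4 members did not pass the filter on low counts. UBE2U and UBE2L2, annotated as a processed pseudogene, had 0 counts in every library. A count of 0 allows up to 3 counts, or 0.161 CPM in the shallowest library, for counting error only and with each count taken as independent. UBE2L4, also a processed pseudogene, had 0 to 6 counts per library, and UBE2L5 had 0 to 10.

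UBE2Q2 encodes an E2 of the UBE2Q family, whose members carry a long extension before the catalytic domain. The gene (ENSG00000140367.11) lies at chr15:75843285-75901078 on the plus strand of GRCh38. Its raw counts were 1054, 1135 and 1162 in the control libraries and 315, 220 and 207 in the shMUC1 libraries. In normalized units these were 48.1, 46.6 and 45.0 CPM against 11.4, 8.54 and 11.1 CPM. Every shMUC1 library lay far below every control library, and the spread within each group was small beside the gap. The mean was 46.6 ± 1.54 CPM in control and 10.4 ± 1.58 CPM in shMUC1 (SD, n = 3 each), and the fitted log2 fold change was -2.17, or 77.8% lower. Of 15355 tested genes, 41 had a log2 fold change at or below that of UBE2Q2, itself included.

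UBE2Q2 has 11 rows of copies in the table, most of them pseudogenes, and reads could pass between them. Together the copies held 36, 31 and 33 counts in the control libraries and 25, 25 and 19 in the shMUC1 libraries. This was 3.30%, 2.66% and 2.76% of the sum of UBE2Q2 and its copies in control, and 7.35%, 10.2% and 8.41% in shMUC1. The copies therefore held far fewer counts than UBE2Q2 lost. UBE2Q2P2 held most of them, with 16, 21 and 21 counts against 17, 19 and 12, and its groups overlapped. UBE2Q2P1 had 11, 0 and 4 counts against 6, 6 and 4, and UBE2Q2L had 2, 6 and 5 against 0, 0 and 2. When UBE2Q2 and all copies were summed into 1 row, the fitted log2 fold change was -2.09. Of the 50-base words in UBE2Q2 transcripts, 0.245% also occurred exactly in a transcript of another gene, which was UBE2Q2P10, a row at 0 counts in every library. No 100-base word was shared, though exact words do not show what an aligner that tolerates mismatches would do.

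**Figure D2:**
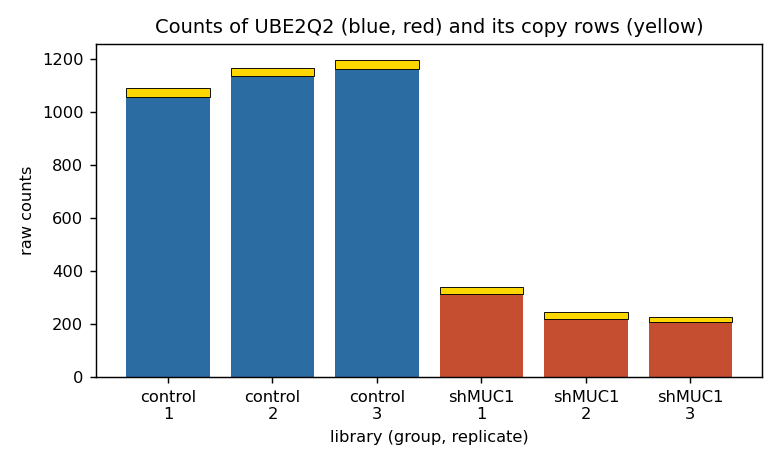
Raw counts per library of UBE2Q2 (blue in control, red in shMUC1) with the summed counts of its 11 copy rows stacked on top (yellow). UBE2Q2 held 1054 to 1162 counts in control and 207 to 315 in shMUC1, whereas the copies never summed to more than 36.

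The relatives of UBE2Q2 did not pass the test. UBE2Q1, the closest paralog, had 58.8, 60.1 and 60.5 CPM in control and 59.9, 60.7 and 59.0 CPM in shMUC1. Its groups overlapped fully, and its log2 fold change was 0.0015 (95% confidence interval -0.10 to 0.10, adjusted p = 0.984). UBE2QL1, a shorter relative, was the member with the lowest level among those tested, with 5.93, 5.95 and 5.46 CPM against 4.27, 4.93 and 5.91 CPM. The groups overlapped through shMUC1 replicate 3, and the log2 fold change of -0.21 had an interval of -0.53 to 0.11 (adjusted p = 0.281). Genes around UBE2Q2 moved less than it did, though only 41 of 15355 tested genes, itself included, fell as far. Of 12 tested genes within 500 kb, 1 rose (ETFA, 0.39) and 3 fell (CSPG4, -0.59, PTPN9, -0.37, and FBXO22, -0.27). Over all tested genes 25.2% rose and 23.6% fell. The full range of log2 fold changes was -0.76 to 0.39, and its low end was ISL2, at 0.982 against 0.580 CPM, which did not pass the test (adjusted p = 0.125).

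The E2s that start chains or work with many E3s held the largest rise. Of 11 genes in this group 10 were tested, 6 rose, 0 fell and 4 did not pass the test, with a median log2 fold change of 0.23. Over all tested genes 25.2% rose and 23.6% fell, and the group is too small to weigh its counts closely against these shares. UBE2H, the E2 of the CTLH ubiquitin ligase and an E2 known from maturing red cells, rose most among the members. Its gene (ENSG00000186591.12, chr7:129830732-129952949, minus strand) had 164, 164 and 161 CPM in control and 258, 272 and 247 CPM in shMUC1. The log2 fold change was 0.67 (SE 0.0368, adjusted p = 1.05e-17), or 59.1% higher. UBE2W, which places ubiquitin on the amino terminus of proteins, had 58.0, 63.2 and 59.0 CPM against 84.9, 86.0 and 77.5 CPM. The gap between its groups was wider than the spread within either, with a log2 fold change of 0.47 (SE 0.0512, adjusted p = 9.99e-10).

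The UBE2D genes encode near-identical E2s that serve many RING ligases, yet they moved unequally. UBE2D1 had 29.4, 28.5 and 32.6 CPM in control and 36.5, 42.6 and 37.8 CPM in shMUC1, and rose by a log2 fold change of 0.37 (SE 0.0717, adjusted p = 4.38e-05). UBE2D4 had 13.2, 11.9 and 13.1 CPM against 15.7, 15.0 and 18.7 CPM, a log2 fold change of 0.36 (SE 0.102, adjusted p = 0.00354). Both were expressed at lower levels per kilobase of exon than UBE2D2 and UBE2D3, at 8.65 and 2.71 CPM per kb in control against 62.3 and 49.4. UBE2D3 had the highest CPM of all members, with 494, 510 and 489 CPM against 488, 493 and 476 CPM, and its groups overlapped. Its log2 fold change was -0.03 (interval -0.10 to 0.03, adjusted p = 0.364). UBE2D2 had a mean of 222 CPM in both groups, with an interval of -0.07 to 0.08 (adjusted p = 0.99). The test of a difference between these genes was not made.

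The UBE2E enzymes, which carry an amino-terminal extension, were divided too. UBE2E1 had 49.9, 52.4 and 49.9 CPM in control and 64.0, 57.6 and 57.4 CPM in shMUC1, a log2 fold change of 0.24 (SE 0.0559, adjusted p = 0.000564). UBE2E2 had 83.8, 83.8 and 80.3 CPM against 101, 94.9 and 91.3 CPM, a log2 fold change of 0.22 (SE 0.046, adjusted p = 0.000153). In both genes the groups did not overlap. UBE2E3, at 93.7 ± 1.05 CPM against 92.5 ± 6.08 CPM (SD, n = 3 each), and UBE2L3, the E2 of HECT and RBR ligases, at 61.8 ± 1.96 against 58.8 ± 2.45 CPM, did not pass the test.

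Among the E2s of lysine-63 chains and DNA repair, 3 of 6 rose and 0 fell, with a median log2 fold change of 0.14. For all tested genes the shares were 25.2% higher and 23.6% lower. UBE2T, which monoubiquitinates FANCD2 in the Fanconi anaemia pathway, had 35.0, 32.2 and 30.5 CPM in control and 35.3, 36.2 and 41.2 CPM in shMUC1. Its groups were separated by less than their spread, and the log2 fold change was 0.20 (SE 0.0712, adjusted p = 0.0172). UBE2V2, a partner of UBE2N, had 126, 125 and 118 CPM against 149, 139 and 133 CPM, a log2 fold change of 0.19 (SE 0.0425, adjusted p = 0.000286). UBE2N, which builds lysine-63 chains, also passed the test at 0.13 (adjusted p = 0.0297), but its groups overlapped. UBE2V1 did not pass the test at 0.16 (adjusted p = 0.222), although its groups did not overlap. The RAD6 homologs UBE2A and UBE2B, which act in DNA damage tolerance and histone H2B ubiquitination, had log2 fold changes of 0.02 and 0.11 and did not pass the test.

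Among the E2s of chain extension, endoplasmic reticulum (ER) quality control and protein degradation, 5 of 9 rose and 1 fell, with a median log2 fold change of 0.14. For all tested genes the shares were 25.2% higher and 23.6% lower. UBE2G2, an E2 of the ER ligase SYVN1, had 74.5, 78.7 and 78.1 CPM in control and 110, 98.4 and 102 CPM in shMUC1. The groups were well separated, with a log2 fold change of 0.42 (SE 0.0465, adjusted p = 8.94e-10). UBE2J1, which is anchored in the ER membrane, had 112, 112 and 114 CPM against 131, 125 and 135 CPM, a log2 fold change of 0.21 (SE 0.0404, adjusted p = 4.44e-05). Its relative UBE2J2 did not pass the test at -0.05 (interval -0.18 to 0.07). UBE2K, which extends lysine-48 chains, had 239, 246 and 235 CPM against 271, 267 and 279 CPM, a log2 fold change of 0.18 (SE 0.0337, adjusted p = 1.76e-05). UBE2O, a joint E2 and E3 for orphan proteins, rose by 0.18 (adjusted p = 0.0228) and UBE2G1, which extends chains on cullin ligase substrates, by 0.14 (adjusted p = 0.0029). UBE2R2, a CDC34-like E2 of cullin ligases, had 230, 221 and 221 CPM against 236, 232 and 229 CPM, and its groups overlapped (0.05, adjusted p = 0.221).

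UBE2Z was the member of that group that fell. It is the E2 that takes ubiquitin or the related modifier FAT10 from the activating enzyme UBA6 rather than from UBA1. The gene (ENSG00000159202.17, chr17:48908369-48929056, plus strand) had 109, 113 and 119 CPM in control and 77.5, 77.9 and 84.2 CPM in shMUC1, with no overlap. The log2 fold change was -0.51 (SE 0.0455, adjusted p = 5.27e-12), or 29.9% lower. UBA6 fell too, from 99.7 ± 4.31 to 56.3 ± 2.28 CPM (SD, n = 3 each), and its log2 fold change was -0.83 (adjusted p = 7.43e-17). UBA1, the main ubiquitin-activating enzyme, had 901 ± 5.33 against 910 ± 21.3 CPM and did not pass the test (0.01, adjusted p = 0.713). BIRC6, a large joint E2 and E3 that also works with UBA6, fell by 0.24 on the log2 scale (adjusted p = 4.1e-06).

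**Figure D3:**
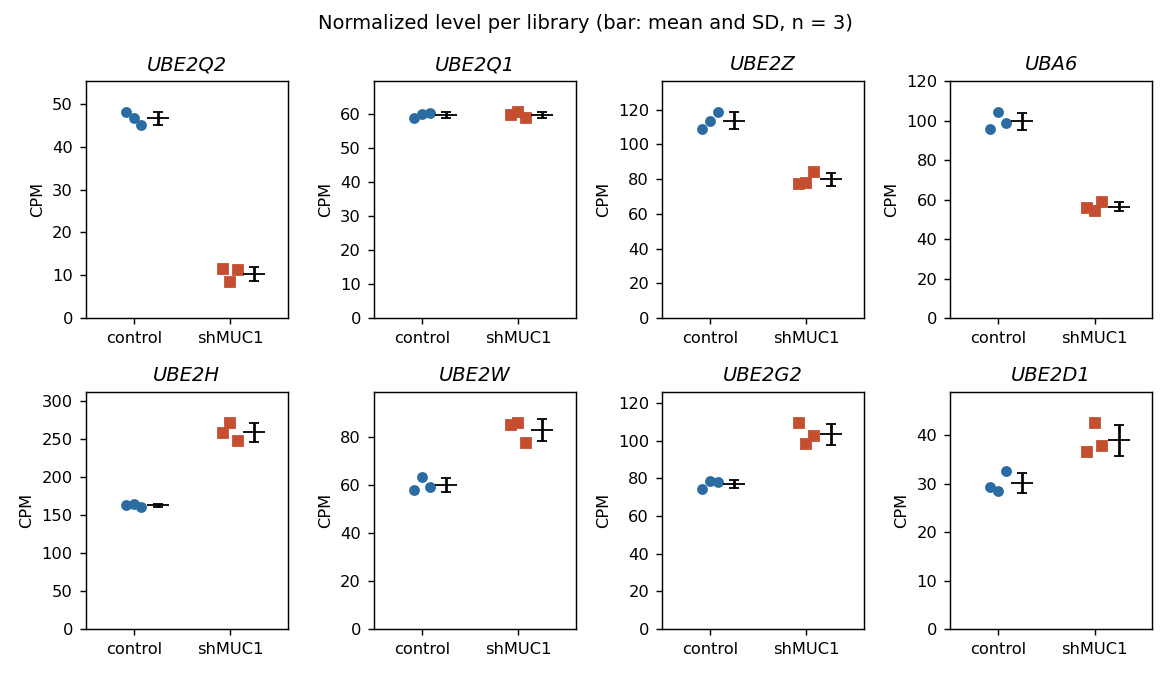
CPM per library on axes from 0 for UBE2Q2, its paralog UBE2Q1, UBE2Z, the activating enzyme UBA6, UBE2H, UBE2W, UBE2G2 and UBE2D1, with the mean and SD of 3 libraries beside the points. UBE2Q2, UBE2Z and UBA6 lay lower in every shMUC1 library, UBE2H, UBE2W, UBE2G2 and UBE2D1 lay higher, and UBE2Q1 overlapped.

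Among the E2s of ubiquitin-like modifiers, those of NEDD8 and ISG15 had small differences. UBE2F, the NEDD8 E2 that pairs with RNF7 and CUL5, had 14.7, 13.0 and 11.2 CPM against 15.9, 15.6 and 14.6 CPM. It passed the test at 0.25 (SE 0.105, adjusted p = 0.0456), but its groups overlapped through control replicate 1. UBE2M, the other NEDD8 E2, was at 118 ± 4.08 against 120 ± 2.86 CPM, and UBE2L6, the ISG15 E2, was at 7.77 ± 0.616 against 7.11 ± 0.528 CPM (SD, n = 3 each). Neither passed the test.

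**Figure D4:**
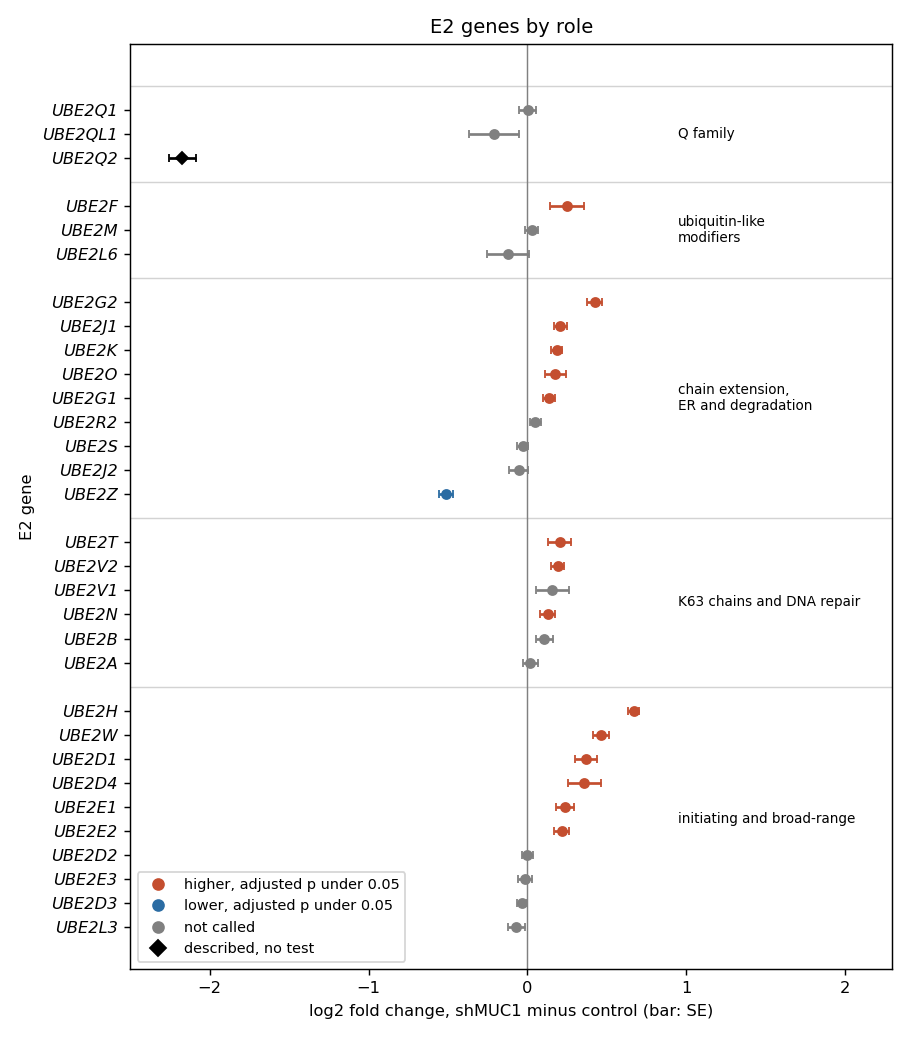
Log2 fold change (shMUC1 minus control) of the 31 E2 genes that passed the filter and are reported here, grouped by role, with bars of 1 SE. Red points passed the test as higher (15), the blue point (UBE2Z) as lower, grey points did not (14), and the black diamond is UBE2Q2 at -2.17, given with no test.

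Several of the smaller calls rested on single libraries. Without control replicate 3, UBE2N came to a log2 fold change of 0.068 (adjusted p = 0.294), UBE2F to 0.14 (adjusted p = 0.315), UBE2T to 0.14 (adjusted p = 0.131) and UBE2G1 to 0.075 (adjusted p = 0.0842). The call of UBE2N was also lost without control replicate 1 (0.11), shMUC1 replicate 1 (0.13) or shMUC1 replicate 3 (0.12). UBE2F was lost without control replicate 2 (0.26), shMUC1 replicate 1 (0.23) or shMUC1 replicate 2 (0.24), UBE2T without shMUC1 replicate 3 (0.14), and UBE2O without control replicate 1 (0.14) or shMUC1 replicate 3 (0.16). UBE2B gained a call without control replicate 2 (0.15, adjusted p = 0.0417). The calls of UBE2H, UBE2W, UBE2G2 and UBE2Z held without each library in turn.

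Some rows share sequence with others, so their levels are uncertain. In GENCODE 29, 38.1% of the 50-base words of UBE2V1 recur elsewhere, mostly in the readthrough gene TMEM189-UBE2V1 on the same strand, a row at 0 counts in every library. For UBE2N the share was 39.6%, mostly in NUDT4 on the opposite strand. The share was 17.5% for UBE2A, 16.1% for UBE2S, 13.9% for UBE2F, 13.0% for UBE2D4, 11.0% for UBE2E3 and 10.1% for UBE2L3. It was 0.554% for UBE2H, and 0% for UBE2Z, UBE2D1, UBE2E1, UBE2E2, UBE2J1, UBE2K, UBE2R2 and UBE2T. The kit keeps the strand, but the strand setting of the counting was not given in the sources used here.

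Per kilobase of annotated exon, the order of the members differed from that by CPM. UBE2S, which elongates lysine-11 chains for the cyclosome, stood highest in control at 78.2 CPM per kb, followed by UBE2M at 64.5, UBE2D2 at 62.3, UBE2R2 at 55.0 and UBE2D3 at 49.4. UBE2D3 dropped in this order because its annotated exons span 10069 bases. UBE2QL1 stood lowest among the tested members at 1.34 CPM per kb. UBE2Q2 stood at 12.1 CPM per kb in control and 2.69 in shMUC1, close to the control level of UBE2D4 at 2.71. Annotated exons include isoforms these cells may not use, so the order is approximate.

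The partners of the E2s moved in both directions, as genes did at large, of which 25.2% rose and 23.6% fell. Of 9 tested activating enzymes 3 rose and 2 fell, and beside UBA6 those that passed the test included ATG7 (-0.42), UBA3 (0.19) and SAE1 (0.11). Of 8 tested E2s and E2 variants under other names 2 rose, ATG3 (0.41) and ATG10 (0.41), both autophagy conjugation enzymes, and 3 fell, AKTIP (-0.47), TSG101 (-0.31) and BIRC6 (-0.24). Of the ubiquitin genes UBB (-0.21) and RPS27A (-0.08) fell. All of these are log2 fold changes.

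For UBE2H, the partners were the subunits of the CTLH ligase, a list drawn up after the values of UBE2H were seen. Of 11 subunits 5 rose and 2 fell, with a median log2 fold change of 0.13, where 25.2% of all tested genes rose and 23.6% fell. The RING subunit RMND5A rose from 104 ± 4.43 to 149 ± 7.29 CPM (0.52), while its catalytic partner MAEA did not pass the test at 59.8 ± 6.44 against 61.9 ± 4.19 CPM (SD, n = 3 each). The scaffold and substrate-receptor subunits WDR26 (-0.48) and RANBP10 (-0.34) fell, and MKLN1 (0.27) and GID8 (0.21) rose. The members of the complex thus did not move one way with its E2.

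In the SUMO pathway 9 of 17 tested genes rose and 5 fell, with a median log2 fold change of 0.13. For this and the next 2 pathways, the shares over all tested genes were 25.2% higher and 23.6% lower. The SUMO ligases were divided, PIAS3 (-0.45) and PIAS2 (-0.24) lower and PIAS4 (0.29) higher. Among the SUMO proteases SENP7 (-0.66) fell, while SENP6 (0.29), SENP2 (0.23), SENP1 (0.23) and SENP5 (0.18) rose. SENP3 (0.22) did not pass the test. In the NEDD8 pathway 5 of 12 rose and 1 fell, with a median of 0.13. DCUN1D3 (0.75) and DCUN1D4 (0.47), which help load NEDD8 onto cullins, rose and their relative DCUN1D2 (-0.28) fell. Of 6 tested ISG15 pathway genes 2 rose, ISG15 (0.66) and HERC6 (0.44), and HERC5 (-0.57), the main human ISG15 ligase, fell, with a median of 0.04. UBA7, the ISG15-activating enzyme, was too low to test at 0.272 ± 0.105 against 0.219 ± 0.105 CPM (SD, n = 3 each).

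The E3 groups were mixed as well. Over all tested genes 25.2% rose and 23.6% fell, so calls in both directions were common throughout and the mixture is not particular to these ligases. Of 10 cullins and RING partners 1 rose and 3 fell (median -0.02), with CUL9 (-0.41) and CUL7 (-0.32) lower and RBX1 (0.17) higher. Of 26 HECT ligases 9 rose and 10 fell (median -0.04), led by UBE3B (0.91), UBE3D (0.78), HECW1 (0.71), SMURF2 (-0.69) and HACE1 (0.57). Of 14 RBR ligases, many of which take ubiquitin from UBE2L3, 4 rose and 4 fell (median 0.05), led by ANKIB1 (-0.62) and RNF144B (0.43). Of 11 ligases that work with UBE2A, UBE2B, UBE2N or UBE2T, 4 rose and 2 fell (median 0.06), with TRAF6 (0.33) and FANCL (0.29) higher and RNF40 (-0.31) and RAD18 (-0.25) lower.

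Of 9 tested partners in ER-associated degradation 1 rose, RNF139 (0.36), and 3 fell, SEL1L (-0.38), AUP1 (-0.16) and RNF5 (-1.21), with a median of -0.00036. For these and the proliferation genes below, the shares over all tested genes were 25.2% higher and 23.6% lower. AUP1 recruits UBE2G2, which itself rose. RNF5 was low, at 4.14 ± 1.21 against 1.79 ± 0.0805 CPM (SD, n = 3 each), and has a near-identical pseudogene, so its value is uncertain. SYVN1, a ligase of UBE2G2, did not pass the test, with 102 ± 2.17 against 102 ± 5.70 CPM (SD, n = 3 each). Of 20 proliferation genes 2 rose and 7 fell, with a median log2 fold change of -0.08, and their summed level ran from 5234 to 5400 CPM in control and from 4845 to 5046 CPM in shMUC1. UBE2S and UBE2T are known to peak in dividing cells, and UBE2S did not pass the test (-0.03, interval -0.10 to 0.04) while UBE2T rose. The part of cell division in these values was not tested.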

How the data were processed

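Raw read counts for each gene symbol were deposited by the authors for the 6 libraries (stranded poly(A) kit, Trizol RNA), with no pooling of replicates. The submitters' processing notes name CASAVA 1.8.2, STAR 2.7.9a, featureCounts, DESeq2 1.24.0 and GRCh38.p7, and the annotation release was not given in the sources used here. Most low counts were even, from 68.8% in control replicate 3 to 70.5% in shMUC1 replicate 3. Both reads of a pair may thus have been counted, so halved counts were tried. Spreadsheet dates had replaced some symbols, MARCH6 of the ER list among them.

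Counts were fitted with edgeR 4.0.16 in R 4.3.3 (filterByExpr, TMM scaling, quasi-likelihood F test, two-sided, 3 control against 3 shMUC1, no covariates), with Benjamini-Hochberg adjustment over 15355 genes and a threshold of 0.05. CPM are TMM-normalized. Confidence intervals are 95%. The code was tested on simulated data. Gene models, overlaps and 3′ UTRs came from GENCODE 29 (GRCh38, the same main build as the notes name) matched by symbol, which placed all 36 members.

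Members and lists were chosen with earlier results of these data known. Values per library were given for the UBE2Q genes and the 3 members of highest CPM. They were also given for those of the 14 called members of largest absolute log2 fold change that are reported here. At most 5 called genes were taken per pathway list, with others named for contrast after their values were seen. Some genes of the family and the lists are counted but not reported here. Alternatives were other scalings and filters, DESeq2 1.42.0, limma-voom (limma 3.58.1), a replicate block, halved counts, each library left out, a 1.5-fold rule and UBE2Q2 summed with its copies. Count totals limit the precision, and intervals and floors cover counting error or the spread between these libraries only.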

Additional observations from a re-analysis of the deposited data

How the results depend on the processing

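Under 14 alternatives, 21 of the 31 tested members neither changed sign nor crossed the threshold, and 395 of 434 values did neither. The number of members that rose ran from 11 to 15 and the number that fell was 2 throughout when each library was left out. With a 1.5-fold rule added, 1 rose and 0 fell. The log2 fold change of UBE2Q2 ran from -2.26 to -2.04 when each library was left out. Replicate numbers did not pair the samples (correlations of deviations of 0.0167, -0.0311 and -0.0359), and with the replicate number as a block 15 members rose and 2 fell. DESeq2 gave 12 higher members, and UBE2F, UBE2N and UBE2O lost their calls with it. UBE2F and UBE2N also lost them with library totals (adjusted p = 0.0691 and 0.0702) and with a mean of at least 50 counts (adjusted p = 0.0644 and 0.0686).

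Only members within 0.02 of 0 changed sign, and none of them was called. With library totals UBE2A came to -0.0021, UBE2D2 to -0.021 and UBE2Q1 to -0.0206. With a mean of at least 50 counts they came to -0.0031, -0.0219 and -0.0213. With DESeq2-style size factors UBE2D2 was -0.0022 and UBE2Q1 -0.0014, with halved counts -0.0068 and -0.0046, and with limma-voom UBE2D2 was -0.0011. With single libraries left out, UBE2A ran from -0.052 to 0.076, UBE2D2 from -0.0417 to 0.0254, UBE2E3 from -0.0622 to 0.0314 and UBE2Q1 from -0.0082 to 0.0151. The cause was not tested. With 3 libraries a group, the low members UBE2QL1, UBE2L6, UBE2V1, UBE2F and UBE2D4 had SEs above 0.1.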
